A study of Mus musculus with 2 samples.

Results

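The genes described here encode the cell adhesion molecules through which axons and oligodendrocytes (OLs) recognize each other and build the node of Ranvier and the paranodal junction beside it. They were chosen by name as *Nfasc*, *Nrcam*, *Cntn1*, *Cntn2*, *Cntnap1*, *Cadm1*, *Cadm2*, *Cadm3*, *Cadm4* and *Ncam1*, 10 of the 23951 gene symbols found in both libraries, and all 10 passed the filter on low values (at least 1 FPKM in at least 1 library). RNA-seq was carried out on optic nerves at postnatal day 12 (P12), with 1 library from control mice (*Tcf7l2* c/+ with OLig1-cre) and 1 library from *Tcf7l2*ΔHMG mutant mice (*Tcf7l2* c/c with OLig1-cre). Both genotypes therefore carried the Cre and at least 1 floxed *Tcf7l2* allele, in which Cre removes exon 11, the exon of the DNA-binding HMG domain. *Olig1*-Cre acts in the OL lineage, so astrocytes, vessels, meninges and axons of the same nerves kept the floxed allele unless they expressed the Cre. The number of animals pooled into a library is not given in the sources used here, and with 1 library per genotype no difference below has a replicate check or a p-value.

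Along a myelinated axon, the node holds sodium channels, and the adjoining paranode is sealed by a complex of Cntn1 and Cntnap1 on the axon with a glial isoform of Nfasc on the myelin loops. Beyond the paranode lies the juxtaparanode, where Cntn2 anchors potassium channels, and the internode, where the Cadm (SynCAM) proteins of the axon bind those of the myelinating glia. Neuronal isoforms of Nfasc, together with Nrcam, gather the channels of the node. Ncam1 is a broadly expressed adhesion molecule of neurons and glia whose long polysialic acid chains hold back adhesion during development.

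Levels are FPKM, the fragments assigned to a gene divided by the length of its transcripts and by the depth of the library, so levels of different genes can be set side by side. Ratios set mutant over control on the log2 scale after 0.1 was added to each FPKM, and a gene was called where it was past a fold change of 1.5. The bounds of the Cufflinks intervals corresponded to a depth of 27624000 fragments for control nerves and 39938000 for mutant nerves, so the control was the less precise for low genes. These intervals cover sampling of fragments within 1 library and no variation between animals, and 7.26% of named rows in control nerves and 8.64% in mutant nerves had an FPKM outside their own interval. *Tcf7l2* itself was measured at 17.8 FPKM (interval 16.7 to 18.9) in control nerves and 14.6 FPKM (13.9 to 15.4) in mutant nerves. This row covers the whole gene, which reaches beyond the deleted exon, and so does not check the deletion.

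Promoter windows of 300 bases (250 before and 50 after the start site) were found in RefSeq for 7 of the 10 genes on GRCm38.p6. They were joined by symbol, because the libraries were mapped to mm9. The TCF/LEF core, TCAAAG or CTTTGA, occurred in 1 of their 10 windows, compared with 16.0% of all 32851 windows. The 10 include a further window of *Nfasc* and a further one of *Cntn1* whose bases before the start end in a pyrimidine-rich stretch and CAG, as an intron does before an exon, so these may not be promoters. The 250 bases before the start are shown, 5′ to 3′, for *Nfasc* (chr1:132707327-132707576, minus strand) and *Cadm2* (chr16:67620909-67621158, minus strand), which were lower in mutant nerves, for *Nrcam* (chr12:44328635-44328884, plus strand), which was higher, and for *Cntn1* (chr15:92050915-92051164, plus strand), which holds the match. The rows of *Nfasc* and *Cntn1* each join 3 groups of transcription starts, so the window shown need not be that of the start in use. Capitals mark the match, which begins 59 bases before the start of *Cntn1*.
Nfasc: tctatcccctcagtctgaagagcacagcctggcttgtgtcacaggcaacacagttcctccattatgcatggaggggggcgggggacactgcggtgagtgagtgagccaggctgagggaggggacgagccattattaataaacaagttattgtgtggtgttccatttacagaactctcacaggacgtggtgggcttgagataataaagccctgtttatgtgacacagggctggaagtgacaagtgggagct
Cadm2: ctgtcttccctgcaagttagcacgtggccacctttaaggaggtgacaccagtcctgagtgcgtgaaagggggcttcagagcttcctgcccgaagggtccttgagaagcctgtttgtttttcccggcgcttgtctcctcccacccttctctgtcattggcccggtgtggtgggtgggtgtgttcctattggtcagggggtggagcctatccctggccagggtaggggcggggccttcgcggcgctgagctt
Nrcam: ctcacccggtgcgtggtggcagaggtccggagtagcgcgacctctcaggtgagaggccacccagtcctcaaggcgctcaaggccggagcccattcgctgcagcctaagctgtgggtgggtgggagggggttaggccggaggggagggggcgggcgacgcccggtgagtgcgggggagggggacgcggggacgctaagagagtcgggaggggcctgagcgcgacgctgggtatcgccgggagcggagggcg
Cntn1: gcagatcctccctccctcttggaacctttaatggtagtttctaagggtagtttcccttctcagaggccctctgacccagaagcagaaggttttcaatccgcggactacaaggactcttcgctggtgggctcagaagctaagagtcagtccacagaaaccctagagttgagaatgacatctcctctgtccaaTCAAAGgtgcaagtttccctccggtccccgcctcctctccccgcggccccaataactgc

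The windows differed in base composition. That of *Nrcam* was 72.4% G or C and held 25 CpG dinucleotides, that of *Cadm2* was 60.8% with 10, and that of *Nfasc* was 52.0% with 4, beside medians of 52.4% and 6 over all windows. A match of 6 letters is a description of these windows, not a binding site, and no Tcf7l2 binding data were analysed here.

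Of the 10 genes, 3 were called lower in the *Tcf7l2*ΔHMG library (*Nfasc*, *Cadm2* and *Cadm1*) and 2 were called higher (*Cntnap1* and *Nrcam*). In bulk libraries of whole nerve, fewer cells of a type and less RNA per cell cannot be told apart. Among the 14199 genes that passed the filter, called genes tested from here on, 8.52% were called lower and 15.4% higher, 23.9% in all, and 5 of the 10 members were called. The median log2 ratio of the members was −0.36, with 7 below 0 and 3 above it, and that of all genes tested was 0.047. For 9 of the 10 the Cufflinks intervals lay apart, as they did for 52.4% of all genes tested. Summed over the 10 genes, the level was 973 FPKM in control nerves and 648 FPKM in mutant nerves. *Nfasc* alone made up 51.1% of that sum in control nerves and 39.3% in mutant nerves, a share that does not depend on how a library is scaled.

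**Figure D1:**
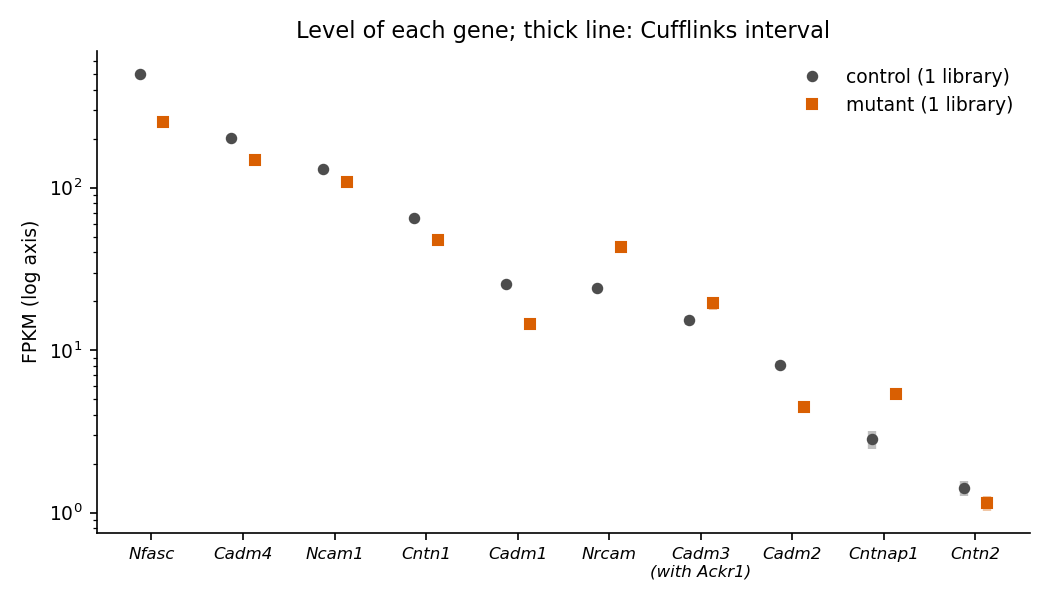
FPKM of each of the 10 genes (log axis) in the control library (circles) and the mutant library (squares), ordered by control level, with the Cufflinks interval as a thick line that is mostly hidden behind its point. Levels run from 497 FPKM for *Nfasc* down to 1.42 FPKM for *Cntn2* in control nerves, and *Nrcam*, *Cadm3* and *Cntnap1* are the genes whose mutant value is the higher.

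The order of levels in control nerves was *Nfasc*, *Cadm4*, *Ncam1*, *Cntn1*, *Cadm1*, *Nrcam*, *Cadm3*, *Cadm2*, *Cntnap1* and *Cntn2*. Only the intervals of *Cadm1* and *Nrcam* overlapped among neighbours in that order. The top 4 places and the last place were the same in mutant nerves. *Nrcam* moved from place 6 to place 5, and *Cadm1* from place 5 to place 7.

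The paranodal genes did not change together. *Nfasc*, on chromosome 1 from 134461266 to 134638374 in mm9, was the most abundant gene of the group, at 497 FPKM in control nerves and 255 FPKM in mutant nerves. The mutant level was 51.2% of the control level (log2 ratio −0.96), the largest fall of the group. In each library the FPKM lay just below its own interval, which was 502 to 510 in control nerves and 257 to 261 in mutant nerves. Taken over these bounds, the log2 ratio ranged from −0.99 to −0.94. The row joins 3 groups of transcription starts, and GENCODE M21 lists 6 protein-coding transcripts, so glial and neuronal isoforms of *Nfasc* cannot be told apart in these data.

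*Cntn1*, a membrane-anchored immunoglobulin protein made by neurons and by the OL lineage, lies on chromosome 15 from 91881596 to 92172398. It was measured at 64.9 FPKM (63.8 to 67.3) in control nerves and 47.7 FPKM (47.1 to 49.6) in mutant nerves. The mutant library was the lower, without overlap of the intervals, but the log2 ratio of −0.44 was not past the cutoff. *Cntnap1*, the axonal partner that Cntn1 carries to the paranode, lies on chromosome 11 from 101037431 to 101052034. It was low in both libraries, at 2.83 FPKM (2.47 to 3.20) in control nerves and 5.35 FPKM (4.95 to 5.74) in mutant nerves, and was called higher (log2 ratio 0.89, 0.61 to 1.19 over the interval bounds). The control interval of *Cntnap1* was the widest of the group relative to its level, so this ratio is less precise than that of *Nfasc*.

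Ratios between these genes within a library do not depend on its scaling. *Nfasc* was 176 times the level of *Cntnap1* in control nerves and 47.6 times in mutant nerves. *Cntn1* was 22.9 times the level of *Cntnap1* in control nerves and 8.93 times in mutant nerves. Relative to *Cntn1*, *Nfasc* was at 7.66 times in control nerves and 5.34 times in mutant nerves. The RNA of these 3 genes thus stood in a different proportion in the mutant library, with *Nfasc*, all isoforms together, lower relative to both others. These are RNA levels of whole nerve, which holds several cell types, and the make-up of the paranodal complex was not measured. The ratios to *Cntnap1* also rest on its low level.

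At the node, *Nrcam* lies on chromosome 12 from 45429872 to 45706115 and encodes an L1-family relative of Nfasc. It was measured at 24.0 FPKM (23.4 to 25.1) in control nerves and 43.0 FPKM (41.4 to 44.3) in mutant nerves, and was called higher (log2 ratio 0.84, 0.72 to 0.92 over the interval bounds). *Nfasc* and *Nrcam*, which belong to the same family, were therefore called in opposite directions. The level of *Nfasc* was 20.7 times that of *Nrcam* in control nerves and 5.92 times in mutant nerves.

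At the juxtaparanode, *Cntn2* (TAG-1), which OLs and neurons make, was the lowest gene of the group. It lies on chromosome 1 from 134406002 to 134439517, 21748 bases from *Nfasc*. Its level was 1.42 FPKM in control nerves and 1.14 FPKM in mutant nerves (log2 ratio −0.29). The interval of the control ran from 1.26 to 1.57 and that of the mutant from 1.03 to 1.26, so the intervals met at their edges. They lay apart after the libraries were scaled to the same 75th percentile of named genes or the same total of named rows, so whether a difference was detectable rests on the scaling.

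The 4 Cadm genes gave 252 FPKM together in control nerves and 187 FPKM in mutant nerves, and *Cadm4* held most of this, 80.6% and 79.5%. *Cadm4*, the member made by myelinating glia, lies on chromosome 7 from 25267042 to 25289552. It was measured at 203 FPKM (200 to 211) in control nerves and 149 FPKM (147 to 154) in mutant nerves. Its log2 ratio of −0.45 was close to that of *Cntn1* and was not past the cutoff.

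*Cadm1*, found at synapses and in glia, lies on chromosome 9 from 47338435 to 47661468, and was measured at 25.5 FPKM (24.3 to 26.8) in control nerves and 14.6 FPKM (13.8 to 15.4) in mutant nerves. *Cadm2*, an axonal member of the family, lies on chromosome 16 from 66655666 to 67621153 and was measured at 8.10 FPKM (7.66 to 8.55) and 4.46 FPKM (4.19 to 4.73). Both were called lower, with log2 ratios of −0.80 and −0.85, and stood at 57.2% and 55.1% of their control levels. The interval bounds gave −0.95 to −0.66 for *Cadm1* and −1.01 to −0.68 for *Cadm2*, and both ranges lay wholly past the cutoff. Within the long span of *Cadm2* the files also list unnamed rows, 7 in control nerves and 4 in mutant nerves, whose fragments are not part of the *Cadm2* value.

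*Cadm3*, which binds Cadm4 from the axonal side, could be read only in a row shared with *Ackr1*, a chemokine-binding receptor of red cells and venules, on chromosome 1 from 175262017 to 175297826. The joint row was measured at 15.2 FPKM (14.3 to 16.2) in control nerves and 19.4 FPKM (17.7 to 20.1) in mutant nerves. Its log2 ratio of 0.35 was not past the cutoff and turned to −0.32 when every row of each file was brought to the same total. The share of *Ackr1* in this row was not tested. The ratio of the *Cadm4* row to the *Cadm3* row was 13.3 in control nerves and 7.68 in mutant nerves, so the rows of these partners also stood in a different proportion.

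*Ncam1* lies on chromosome 9 from 49310251 to 49607174. It was measured at 131 FPKM in control nerves and 109 FPKM in mutant nerves, a log2 ratio of −0.26 that was not past the cutoff. In each library the FPKM lay just above its own interval, which was 124 to 130 in control nerves and 104 to 108 in mutant nerves.

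**Figure D2:**
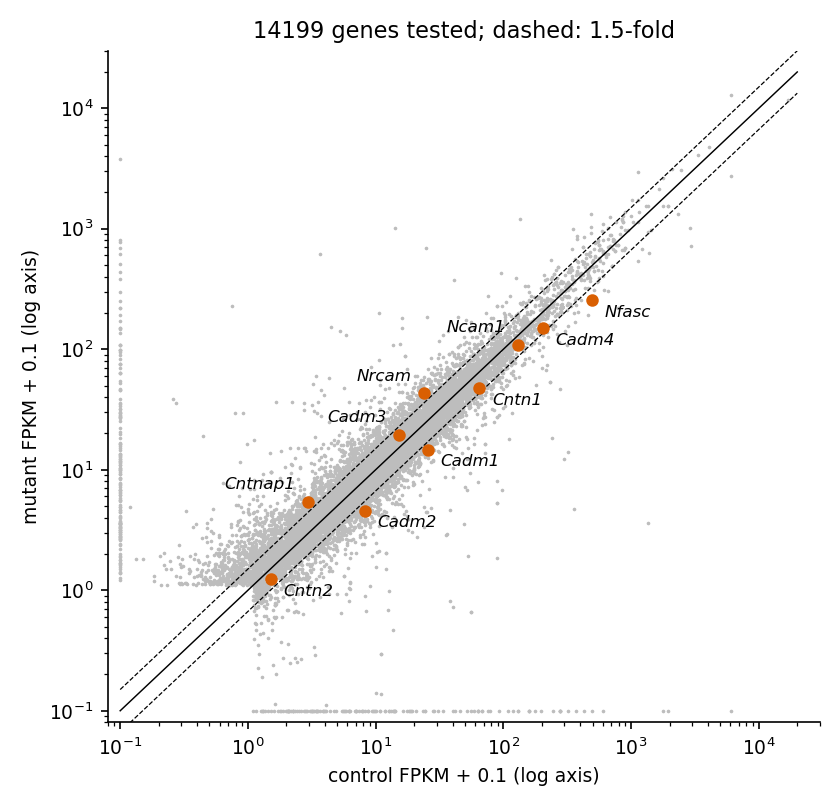
Control FPKM plus 0.1 against mutant FPKM plus 0.1 (log axes) for the 14199 genes tested (grey), with the 10 members in colour, the line of equality and dashed lines at a fold change of 1.5. *Nfasc*, *Cadm1* and *Cadm2* lie below the lower dashed line, *Nrcam* and *Cntnap1* above the upper one, and the other 5 between the lines.

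Genes of like abundance give a scale for these ratios. Of all genes tested, 90% had a log2 ratio between −0.83 and 1.18. *Nfasc* and *Cadm2* lay below this range, and *Cadm1* at −0.80 just inside it. After the genes were divided by mean level into 10 classes of equal size, 4.72% of the class of *Nfasc* had a lower ratio than it, as did 4.51% of the class of *Cadm1* and 5.70% of that of *Cadm2*. Of genes as abundant as *Nrcam*, 93.5% had a lower ratio, and of those as abundant as *Cntnap1*, 93.0%. The 5 called members thus lay toward the ends of their classes, though in each class other genes differed more.

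**Figure D3:**
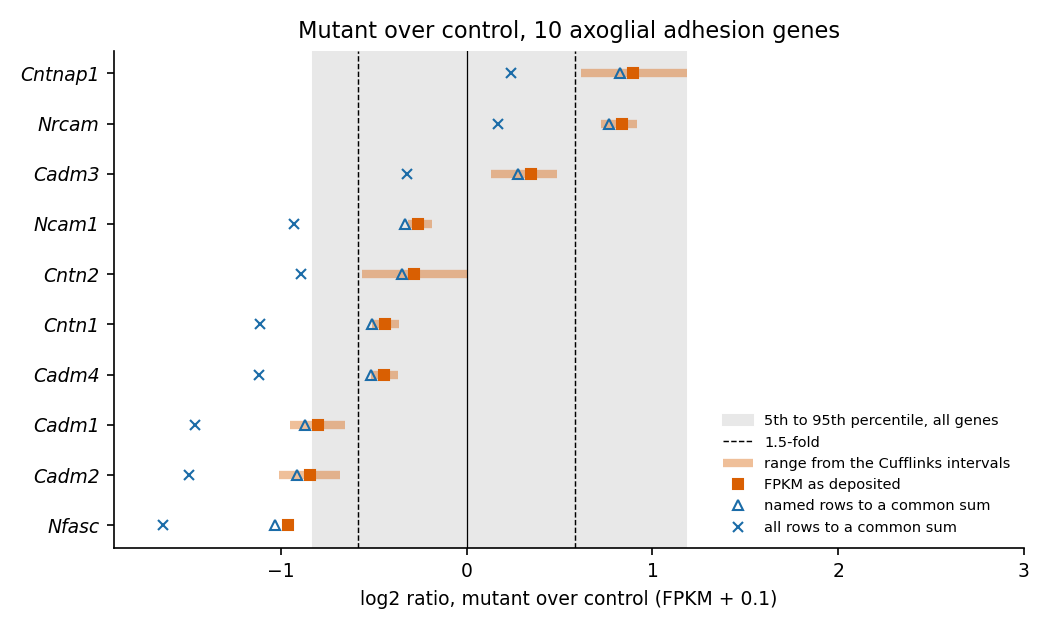
Log2 ratio of mutant over control for each member with FPKM as deposited (squares), after named rows (triangles) or all rows (crosses) were brought to a common sum, and with the range that the Cufflinks intervals allow (thick lines). The grey band holds 90% of all genes tested and dashed lines mark a fold change of 1.5; with all rows rescaled, *Nrcam* and *Cntnap1* lie between the dashed lines at 0.17 and 0.24 and *Cadm3* lies below 0.

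The calls depend on the scale of the libraries. Bringing every row of each file to the same total moved the median of all genes by −0.66 and turned the split of all calls from 1210 lower and 2185 higher to 7465 lower and 652 higher. Rows without a gene name made up most of that total, 70.7% in control nerves and 80.7% in mutant nerves. Under it, 7 members were called lower and none higher. *Cntn1*, *Cntn2*, *Cadm4* and *Ncam1* joined the lower calls, and *Nrcam* and *Cntnap1* were no longer called, with *Nrcam* at 0.17 and *Cntnap1* at 0.24, still above 0 and above the shifted median of −0.61.

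The other genes of the junction were followed in a list of 35, all found in both libraries, of which 34 passed the filter and *Scn1a*, a nodal sodium channel at 0.36 FPKM in control nerves and 0.40 FPKM in mutant nerves, did not. Of the 34, 11 were called lower and 4 higher, with a median log2 ratio of −0.34, beside the 8.52% lower and 15.4% higher among all genes tested. The counts by place below are of 5 to 9 genes each and are read against the same shares. *Mag* of this list also serves as an OL marker.

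All 5 genes of the myelin sheath were called lower. *Mag*, the adhesion molecule of the inner myelin wrap, was measured at 1369 FPKM in control nerves and 627 FPKM in mutant nerves (log2 ratio −1.13). *Ermn*, an actin-binding protein of OLs, stood at 81.7 FPKM and 31.7 FPKM (log2 ratio −1.36), and *Cd9*, a tetraspanin of OLs and other cells, at 613 FPKM and 308 FPKM (log2 ratio −0.99). The level of *Nfasc* relative to *Mag* was 0.363 in control nerves and 0.406 in mutant nerves. Relative to *Sox10*, a transcription factor of the OL lineage, it was 3.45 and 3.32. *Nfasc* thus kept nearly the same proportion to *Mag* and *Sox10*, while its proportion to *Cntnap1* differed 3.68-fold between the libraries. The log2 ratios of the 12 OL markers ran from −2.04 to −0.36, beside −0.96 for *Nfasc*. Its proportion to an OL gene therefore depends on the gene chosen.

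Of the 9 nodal genes that passed the filter, 4 were called higher and 1 lower. *Kcnq3*, a potassium channel subunit of the node, was measured at 7.64 FPKM in control nerves and 12.5 FPKM in mutant nerves (log2 ratio 0.70). *Sptbn4*, the nodal beta-spectrin, was at 1.54 FPKM in control nerves and 3.11 FPKM in mutant nerves (log2 ratio 0.97), and *Scn2b*, a sodium channel beta subunit, at 1.78 and 2.99 FPKM (log2 ratio 0.71). *Scn8a*, the sodium channel of mature nodes, was called lower, at 5.65 FPKM in control nerves and 3.03 FPKM in mutant nerves (log2 ratio −0.88). In their classes of abundance, 92.2% of genes had a lower ratio than *Kcnq3*, 88.6% than *Sptbn4*, 82.4% than *Scn2b* and 5.49% than *Scn8a*. Other genes of like abundance thus differed more. With all rows rescaled, none of the 34 genes was called higher.

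Among the 9 juxtaparanodal genes, 2 were called lower and none higher. *Kcna1*, a potassium channel that Cntn2 helps to hold in place, was measured at 17.4 FPKM in control nerves and 3.999 FPKM in mutant nerves (log2 ratio −2.10), the largest fall of the whole list. *Kcna2*, its partner subunit, stood at 7.74 FPKM and 4.90 FPKM (log2 ratio −0.65). *Cntnap2*, the receptor that joins Cntn2 to these channels, was at 2.21 FPKM in control nerves and 2.05 FPKM in mutant nerves, with overlapping intervals.

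In the membrane skeleton that ties the adhesion complexes to spectrin, 1 of 6 genes was called, beside 23.9% of all genes tested. *Epb4.1l3*, the linker protein of the axonal paranode that OLs also make, was measured at 69.2 FPKM in control nerves and 26.9 FPKM in mutant nerves (log2 ratio −1.36). In the matrix around the node, 2 of 5 genes were called lower. *Hapln2*, the link protein of nodal matrix made by OLs, was at 3.66 FPKM in control nerves and 1.41 FPKM in mutant nerves (log2 ratio −1.31), and *Vcan*, a lectican made by OL precursors, at 41.0 and 26.3 FPKM (log2 ratio −0.64).

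**Figure D4:**
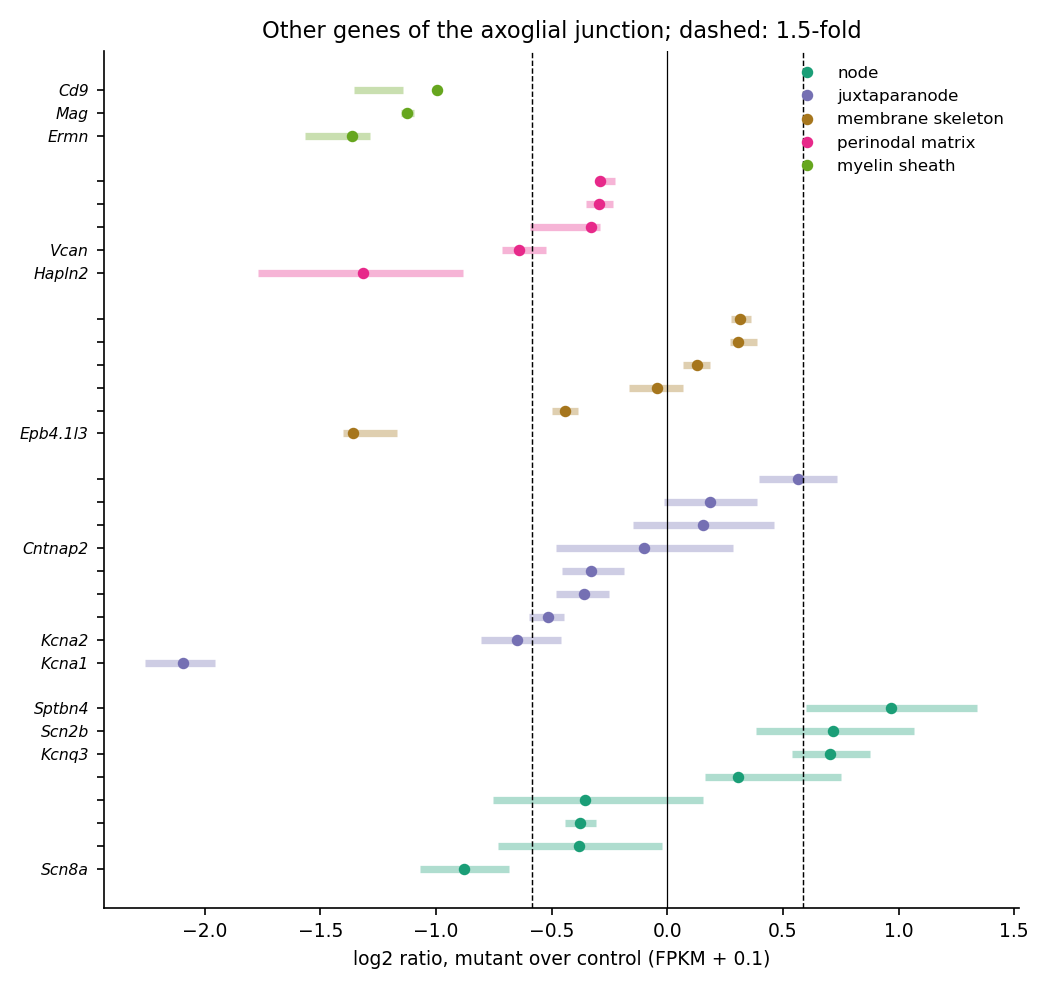
Log2 ratio of mutant over control for 31 of the 34 other genes of the axoglial junction that passed the filter, grouped by place and labelled where the text names them, with the range that the Cufflinks intervals allow as a thick line. All 3 plotted genes of the myelin sheath lie left of the lower dashed line (a fold change of 1.5), and the 3 genes right of the upper one are nodal; the point of *Cd9* lies outside its range because its mutant FPKM lay outside its own interval.

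Markers of several cell types also differed in level between the libraries. Their counts, here and below, are read against 8.52% called lower and 15.4% called higher among all genes tested. Of 12 markers of OLs, all were lower in mutant nerves and 8 were called lower (median log2 ratio −0.82), and their sum was 32593 FPKM in control nerves and 18724 FPKM in mutant nerves. Of 6 markers of the precursor stage and the lineage as a whole, 2 were called lower and none higher (median −0.43, summed level 578 FPKM and 413 FPKM). The part of the lower OL signal in the values of *Nfasc*, *Cadm1* and *Cadm2* was not tested.

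Neuronal markers were mostly higher. The optic nerve holds axons of retinal ganglion cells and no cell bodies of these neurons, and the 10 neuronal markers summed to 98.8 FPKM in control nerves and 126 FPKM in mutant nerves. Of the 9 that passed the filter, 6 were called higher and none lower, beside 15.4% higher among all genes tested. The median log2 ratio of the 9 was 0.79, beside 0.89 for *Cntnap1* and 0.84 for *Nrcam*. Of these 9, 7 lay above 0 and 2 below it. The marker that did not pass, *Pou4f1*, went the other way, at 0.78 FPKM in control nerves and 0.15 FPKM in mutant nerves. No neuronal marker was at 0: *Rbfox3*, a protein of neuronal nuclei, stood at 0.66 FPKM in control nerves and 1.51 FPKM in mutant nerves. *Rbfox3* passed the filter only through its mutant value. The shift of −0.66 under a common total of all rows is nearly as large as the neuronal median. The part of neuronal RNA in the higher level of *Cntnap1*, *Nrcam* and the nodal channels was not tested.

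Astrocyte markers had a median log2 ratio of 0.27 (1 of 8 called higher, none lower), with summed levels of 4914 FPKM and 5744 FPKM. Microglial markers had a median of 0.24 with none of 6 called, endothelial markers of −0.32 with 1 of 5 called higher, and meningeal fibroblast markers of 0.39 with 1 of 5 called higher. Among 5 markers of pericytes and smooth muscle, 1 was called higher and 1 lower. The higher call was *Tagln*, listed at 0 in control nerves and at 35.3 FPKM in mutant nerves. *Acta2* and *Myh11* of the same list stood at 11.9 and 1.85 FPKM in control nerves and 13.8 and 1.44 FPKM in mutant nerves. Why *Tagln* was listed at 0 was not tested. Of 4 Schwann cell markers 1 passed the filter, and they summed to 3.06 FPKM in control nerves and 1.56 FPKM in mutant nerves, so little peripheral nerve was present in either library.

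**Figure D5:**
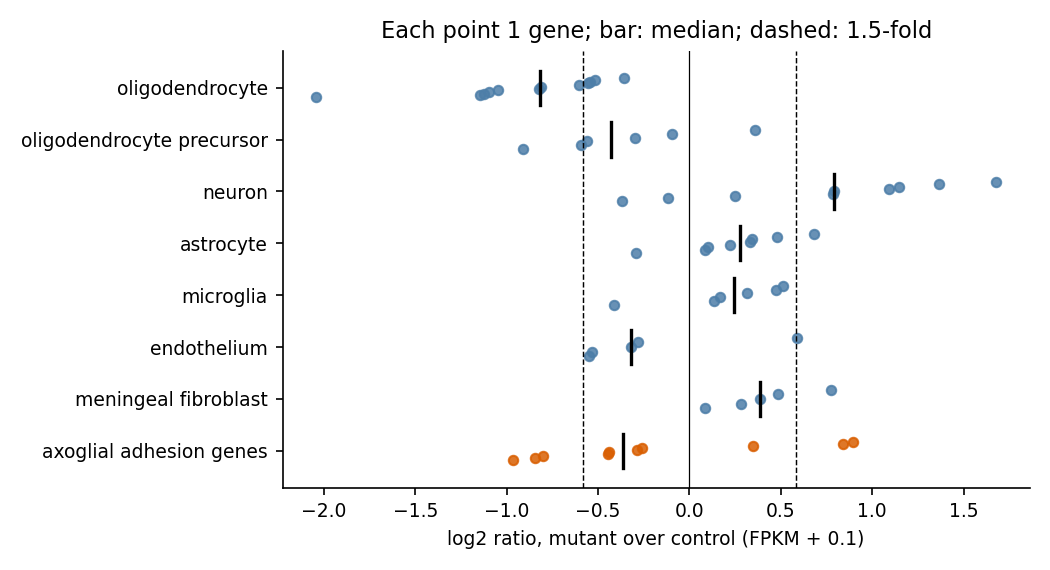
Log2 ratio of mutant over control for the markers of 7 cell types and for the 10 axoglial adhesion genes, 1 point per gene that passed the filter, with the median of each list as a bar and a fold change of 1.5 as dashed lines. The adhesion genes spread over both sides of 0, with *Nfasc*, *Cadm2*, *Cadm1*, *Cadm4* and *Cntn1* within the range of the OL markers (−2.04 to −0.36) and *Nrcam* and *Cntnap1* near the median of the neuronal markers (0.79). The ranges of the lists overlap: *Cadm2*, *Cadm1*, *Cadm4* and *Cntn1* also lie within that of the precursor markers (−0.91 to 0.36). The neuronal markers ran from −0.37 to 1.68. The highest meningeal fibroblast marker, at 0.78 in a list with a median of 0.39, was also near 0.79. The highest astrocyte marker stood at 0.68, in a list with a median of 0.27.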

How the data were processed

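RNA-seq was measured in 1 control and 1 *Tcf7l2*ΔHMG library of P12 optic nerves. The authors mapped reads with TopHat at default settings and deposited FPKM values computed with Cufflinks, with the bounds of a confidence interval and a status per row. Per the labels the build was mm9; versions are not given in the sources used here. Depth was read from interval bounds of unnamed rows under 100 bases.

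Names joined by commas were split, rows were summed per symbol, and 23951 symbols were found in both libraries. Genes with status OK in both and at least 1 FPKM in at least 1 library were tested (14199). Log2 ratios used a pseudocount of 0.1, which understates changes of low genes, and a fold change of 1.5 was the cutoff. Calls were run on simulated data with planted changes well past the cutoff and little noise. This checked the code and not the calls made here. The members, lists and rules were chosen with earlier results of these data known. The text names all members, *Tcf7l2*, and from the lists of other junction genes and of family relatives those past the cutoff and the 3 most abundant; further genes of these lists and single markers were added after their values were seen. Some genes of the lists are counted but not reported here by name. Older symbols were matched through RefSeq synonyms for 5 listed genes, *Nectin1* and *Nectin3* among them. Protein sequences were not analysed here. The alternatives were pseudocounts of 1 and 0.01, other filters, 4 scalings, other treatments of status, repeated and merged rows, and a fold change of 2. Scripts ran in Python 3.11.15 (pandas 2.3.3, numpy 2.4.6, matplotlib 3.10.9).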

Additional observations from a re-analysis of the deposited data

How the results depend on the processing

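Of 12 alternatives, the filters and the treatments of status, repeated and merged rows left the ratio of every member present unchanged. Only the pseudocounts and scalings moved these ratios. *Cntn2* and *Cadm3* were present in 11 of the 12. The direction of each member present was the same in all, except that of *Cadm3*. It turned from 0.35 to −0.32 when every row of each file was brought to a total of 1000000. The calls of *Nfasc*, *Cadm1* and *Cadm2* held in each of the 12 alternatives, and those of *Nrcam* and *Cntnap1* were lost in that setting. It gave 7 members lower and 0 higher, a median of −1.02, 23 junction genes called (23 lower, 0 higher) and 4 relatives lower with 0 higher. With a fold change above 2, 0 members were called (0 lower, 0 higher), with 8 junction genes (7 lower, 1 higher) and 0 relatives (0 lower, 0 higher), and calls over all genes went from 3395 to 1497. They were 8117 with all rows rescaled. A minimum of 5 FPKM left 9 members, 1 junction gene called higher and 1 relative called (0 higher). A pseudocount of 1 left 1 relative called (0 lower, 1 higher), and no filter gave 7 (6 higher). Using only rows with an unmerged name left 9 members, without *Cadm3*. Leaving out a library was not possible with 1 per genotype, and values under about 3 FPKM (*Cntn2*, *Cntnap1*) have the widest intervals.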

Other observations

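Family relatives of these genes, and the enzymes that add polysialic acid to Ncam1, were followed in a list of 16, of which 9 passed the filter. Of these, 3 were called higher and 1 lower, beside 15.4% higher and 8.52% lower among all genes tested. The median log2 ratio of the 9 was 0.12, but the levels were low. *L1cam*, the axonal founder of the family of *Nfasc* and *Nrcam*, was measured at 1.52 FPKM in control nerves and 2.90 FPKM in mutant nerves (log2 ratio 0.89). *St8sia2*, a polysialyltransferase of the developing brain, stood at 1.18 FPKM and 2.13 FPKM (log2 ratio 0.79), whereas its relative *St8sia4* had overlapping intervals. *Cntn6*, a contactin of developing neurons, was at 1.51 FPKM in control nerves and 2.39 FPKM in mutant nerves (log2 ratio 0.63). *Pvrl1* (*Nectin1*), an adhesion molecule related to the Cadm proteins, was called lower, at 11.2 FPKM and 7.18 FPKM (log2 ratio −0.64). Among genes of like abundance, 87.5% had a lower ratio than *L1cam*, 73.0% than *St8sia2*, 78.8% than *Cntn6* and 6.55% than *Pvrl1*. Other genes of these levels thus differed more. The most abundant relatives had ratios close to 0. *Ncam2* was measured at 11.7 and 11.3 FPKM and *Chl1*, a further L1-family gene, at 10.6 and 11.6 FPKM, each with overlapping intervals.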
